A study of Mus musculus with 9 samples.

Results

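The genes described here are 39 genes of the amino acid stress programme, taken by name from a list out of the 23234 genes in the deposited tables. The list was chosen with earlier results of these data known, so counts of members beside shares of all genes are descriptions only. The 39 genes comprise 19 genes that respond to amino acid stress through the transcription factor ATF4, with ATF4 itself, and 20 genes of the cytosolic aminoacyl-tRNA synthetases. Expression was measured by RNA sequencing in group 2 innate lymphoid cells (ILC2s), lymphocytes that make type 2 cytokines, isolated from the fat-associated lymphoid clusters (FALC) of C57BL/6 mice, which were wild-type. All 3 groups received IL-33, an alarmin that activates ILC2s, for 48 h. One group received nothing else, another also received IFN-γ (the type II interferon), and the last also received IL-27 (a cytokine of the IL-12 family). Each cytokine was at 10 ng/ml and each group had 3 libraries. There was no group without IL-33, and neither the age and sex of the mice nor any pooling of animals is given in the sources used here. Whether the replicates came from different cultures or mice is not in the labels, so p-values reflect only the spread of these libraries, which may be technical.

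When amino acids run short or protein folding is disturbed, kinases phosphorylate the translation factor eIF2. General translation then falls, while the messenger RNA of ATF4 is translated more. ATF4 binds C/EBP-ATF response elements, often as a partner of C/EBP proteins, and switches on enzymes that make asparagine, serine and proline, several synthetases that load amino acids onto transfer RNAs, and regulators such as CHOP (Ddit3), TRB3 (Trib3) and ATF3. A pair of members also have a known link to interferon. Wars, the tryptophanyl-tRNA synthetase, is interferon-inducible, and Atf3 is induced by many stress and inflammatory signals besides ATF4.

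The promoters of the members are shown first, because a sequence of the response element is what many ATF4 targets have in common. RefSeq promoter windows (build GRCm38.p6), running from 250 bases before the annotated start of a gene to 50 bases after it, were matched for 32 of the 39 members. No window was matched for Cars, Hars, Lars, Nars, Rars, Vars and Wars. The letters TGATGNAA, a form of the C/EBP-ATF response element, were searched on both strands. They were found in 11 of the 32 matched members (34.4%, counted per gene) and in 3.97% of the 32851 windows searched, all of the same length. A gene can have more than 1 window, so the 2 shares are not counted alike. The 11 were 6 of the 19 stress genes (Asns, Atf3, Chac1, Trib3, Pycr1 and Vldlr) and 5 of the 13 matched synthetases (Aars, Gars, Iars, Tars and Yars). The 250 bases before the start of Asns, the member that fell the most, and of Atf3, the member that rose the most, are given 5′ to 3′ on the strand of the gene, with the matched letters in capitals. The Asns stretch is chr6:7693210-7693459, minus strand, and the Atf3 stretch is chr1:191183334-191183583, minus strand.
Asns: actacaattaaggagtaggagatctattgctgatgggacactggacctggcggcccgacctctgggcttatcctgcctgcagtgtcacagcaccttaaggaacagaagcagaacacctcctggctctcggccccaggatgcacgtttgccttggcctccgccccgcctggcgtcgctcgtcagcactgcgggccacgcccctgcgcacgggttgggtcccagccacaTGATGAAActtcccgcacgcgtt
Atf3: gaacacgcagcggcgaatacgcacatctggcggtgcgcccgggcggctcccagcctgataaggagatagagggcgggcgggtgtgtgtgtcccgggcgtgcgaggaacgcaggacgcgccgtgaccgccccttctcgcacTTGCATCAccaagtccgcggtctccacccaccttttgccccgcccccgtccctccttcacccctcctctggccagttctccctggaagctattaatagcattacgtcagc

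The match lay 23 bases before the start in Asns and 110 bases before it in Atf3, where it reads on the opposite strand. Both genes therefore hold a match to the 8-letter pattern in these windows, as TGATGAAA in Asns and TGATGCAA in Atf3. Their transcripts differed in direction, as described below.

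To compare the element between members, 28-base stretches around it are aligned here, each written so that the capitals read as TGATGNAA. The first 5 are stress genes and the last 4 are synthetases.
Asns: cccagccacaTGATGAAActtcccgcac
Atf3: gcggacttggTGATGCAAgtgcgagaag
Chac1: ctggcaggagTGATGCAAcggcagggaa
Trib3: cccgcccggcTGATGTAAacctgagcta
Pycr1: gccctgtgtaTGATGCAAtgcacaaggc
Gars: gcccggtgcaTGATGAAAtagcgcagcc
Iars: cgtctggaggTGATGCAAtactgacagt
Tars: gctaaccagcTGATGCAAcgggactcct
Yars: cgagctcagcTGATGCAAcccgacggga

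In build GRCm38.p6 these stretches are chr6:7693215-7693242 (Asns, minus strand), chr1:191183426-191183453 (Atf3, plus), chr2:119351039-119351066 (Chac1, minus), chr2:152344029-152344056 (Trib3, plus) and chr11:120643834-120643861 (Pycr1, minus). The synthetase stretches are chr6:55037961-55037988 (Gars, minus strand), chr13:49682127-49682154 (Iars, minus), chr15:11399656-11399683 (Tars, plus) and chr4:129189896-129189923 (Yars, plus). In Trib3, Iars and Yars the element lay after the annotated start, and in the others shown before it. The base at the open position of the element was C in 6 of the 9 stretches, A in Asns and Gars, and T in Trib3. The core of the interferon-stimulated response element, as GAAA repeated after 2 bases of any kind, was searched in the same way. It was found in 2 of the 32 matched members, Vldlr and Qars (6.25%, against 3.44% of the windows searched). A match describes the letters in the window and does not show that a factor binds there.

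Values are FPKM, fragments normalised to transcript length and to the mapped fragments of the library, so levels can be compared between genes. FPKM summed to 628600 to 672500 a library, and 10504 to 11004 genes had at least 1 FPKM. Steps between low values put the depth near 860000 to 988000 fragments in each, where 1 fragment in a transcript of 2 kb is worth 0.506 to 0.581 FPKM; the estimate is approximate. All 11 ILC2 markers had a mean of at least 1 FPKM, and their sum was 14390 to 22230 FPKM with IL-33, 5739 to 9338 with IFN-γ and 12030 to 12430 with IL-27. Most of that sum was the cytokines Il5 (5587 to 9222 FPKM with IL-33, 1656 to 3450 with IFN-γ) and Il13 (5428 to 11030 and 2511 to 3348). The markers Gata3, Rora, Thy1, Klrg1 and Ptprc had log2 differences of 0.02 to 0.41 with IFN-γ, and were picked after their values were seen. Over the 11 the median was 0.02. Other markers moved more: Il2ra by -1.29 (limma adjusted p = 0.00495), Il1rl1 by -0.74 (0.387), Il7r by -0.45 and Areg by 2.23 (0.0169). In the fit with a replicate block, described below, Il1rl1 passed (limma adjusted p = 0.00486). Of the 11, 3 fell and 1 rose (4 and 1 with the block). Over all tested genes 0.717% fell and 2.19% rose (4.66% and 6.51% with the block). Markers of fibroblasts (8 genes) summed to 36.2 to 86.5 FPKM in the replicate 3 libraries of the 3 groups and to 2.93 to 17.6 FPKM in the other 6 libraries. The 4 adipocyte markers were listed at 0 in every library. T cell markers (5 genes) summed to 82 to 103 FPKM in the replicate 3 libraries and 34.0 to 48.6 FPKM in the others, with Cd3e at no more than 2.51 FPKM anywhere. Most of that sum was 1 gene, Cd3g, at 75.8 to 97.6 FPKM in replicate 3 and 28.4 to 43.2 FPKM in the others, and Cd4 was at 0 throughout. Endothelial markers summed to 49.4 to 78.3 FPKM with IL-33, 158 to 204 with IFN-γ and 81.7 to 106 with IL-27. Only 1 of the 4, Pecam1, reached a mean of 1 FPKM, and it made up nearly all of that sum. Their part in the results was not tested, and in bulk libraries fewer cells of a type and less RNA per cell cannot be told apart. The interferon response genes Irf1 and Gbp2 rose with both cytokines, by 3.49 and 6.79 on the log2 scale with IFN-γ (limma adjusted p = 0.00182 and 1.98e-05) and by 3.07 and 5.73 with IL-27 (adjusted p = 0.00649 and 1.26e-04).

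Setting the IFN-γ libraries against those with IL-33 alone asks what the interferon changes in ILC2s already activated by IL-33. Asns, which makes asparagine, and Cars, the cysteinyl-tRNA synthetase, fell, and Atf3, a transcription factor of the stress response, rose. Of the 39 members 38 were tested, and the other 35 did not pass. All told, 30 of the 38 tested members had a lower mean with IFN-γ and 8 a higher one, with a median log2 difference of -0.50, beside a median of 0.03 over all 11014 genes tested. By limma with an adjusted p under 0.05, 1 member rose, beside 2.19% of all tested genes, and 2 fell, beside 0.717%. Libraries with equal replicate numbers deviated together and were treated as pairs, a pairing that the labels do not state. A fit with the number as a block called 15 members lower, beside 4.66% of genes, and 1 higher, beside 6.51%. The groups did not overlap for 19 members that were lower with IFN-γ, beside 8.65% of genes, and for 3 that were higher, beside 11.9%. At an unadjusted limma p under 0.05 there were 20 members, beside 15.4% of genes.

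Setting the IL-27 libraries against the IL-33 libraries asks the same of IL-27, and it uses the same 3 IL-33 libraries. Asns fell, by 1.43 on the log2 scale (1.85 with IFN-γ), and Atf3 rose, by 2.33 (4.17 with IFN-γ). By limma 1 of the 38 tested members rose, beside 0.908% of all genes, and 1 fell, beside 0.118%. The fit with the replicate block called 8 members lower, beside 1.78%, and 1 higher, beside 3.37%. The means of 29 members were lower with IL-27 and those of 9 were higher, with a median log2 difference of -0.40 (0.01 over all genes). The groups did not overlap for 11 members that were lower, beside 5.72% of genes, and 2 that were higher, beside 8.29%. At an unadjusted limma p under 0.05 there were 12 members, beside 9.51% of genes.

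**Figure D1:**
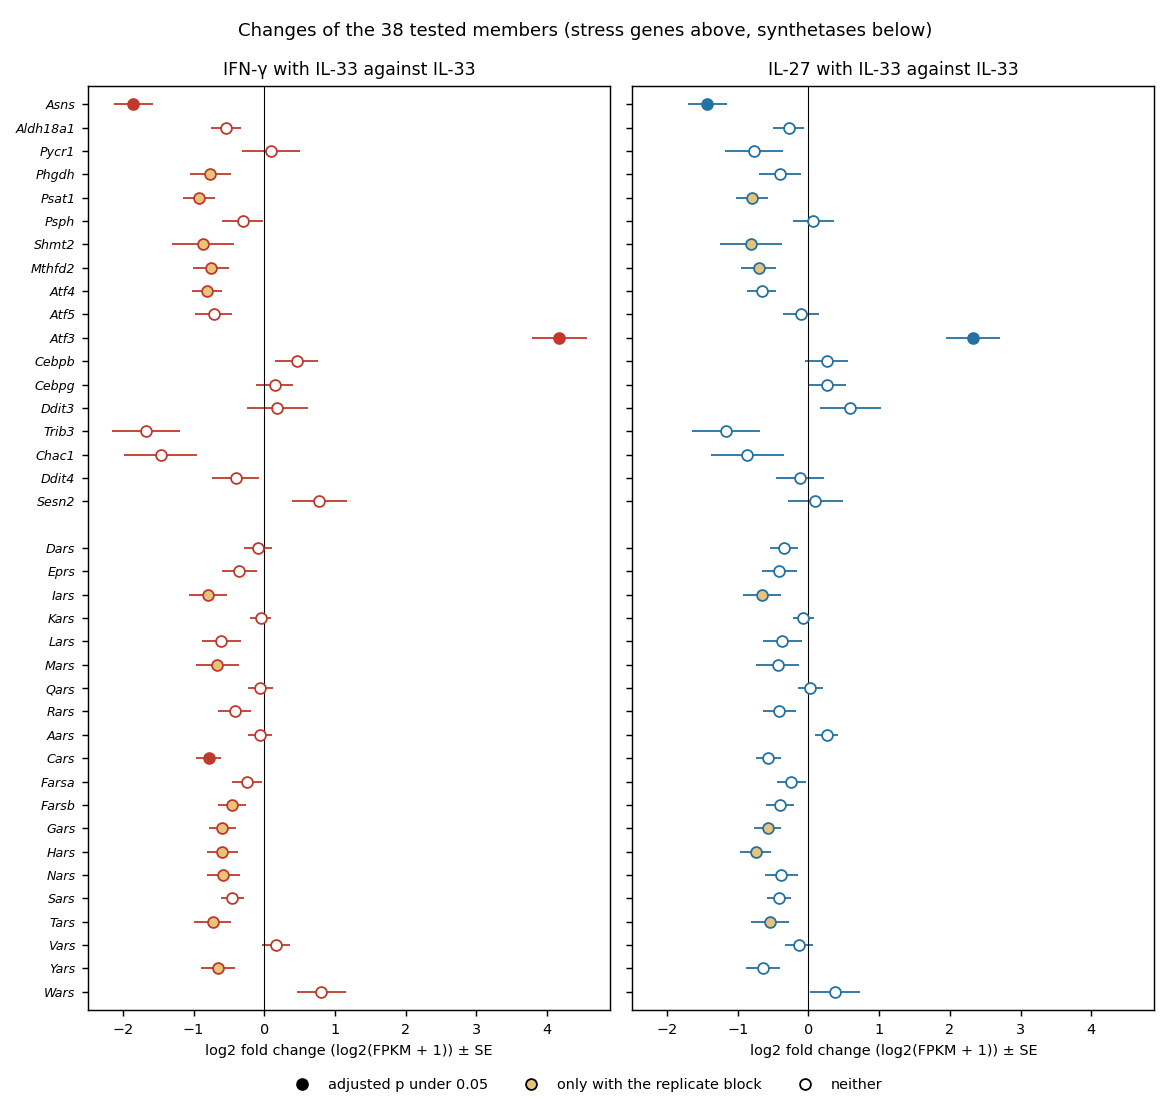
Log2 fold changes of the 38 tested members with IFN-γ (left) and IL-27 (right) against IL-33 alone, on the log2(FPKM + 1) scale, with bars of 1 SE from the fit without the block. Filled points passed adjusted p under 0.05 in that fit and tan points only in the fit with the replicate block; most members lie left of 0, Asns is the lowest and Atf3 the highest in both panels.

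Asns, the asparagine synthetase and a classical ATF4 target (chromosome 6, 7625169 to 7643254, minus strand, build mm9), was at 21.8, 28.1 and 29.7 FPKM in IL-33 replicates 1 to 3. It was at 4.69, 8.75 and 6.80 FPKM with IFN-γ and at 6.59, 10.3 and 11.2 FPKM with IL-27. Every IL-33 library was above every library of the other groups, and the IFN-γ and IL-27 groups overlapped. With IFN-γ it fell 3.61-fold (log2 fold change -1.85 ± 0.27 SE, limma adjusted p = 0.0056). With IL-27 it fell 2.69-fold (-1.43 ± 0.27 SE, limma adjusted p = 0.0445; 0.00332 with the replicate block). The call with IFN-γ was kept without any single library, with an adjusted p of up to 0.0348, but not when the replicate 3 libraries of all groups were left out (0.1105, and 0.0312 with the block). The call with IL-27 was lost without any single library other than IFN-γ replicate 1, with adjusted p up to 0.187.

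The serine and one-carbon enzymes are a source of glycine and of one-carbon units for nucleotides. Their 5 genes summed to 387 ± 70.1 FPKM with IL-33, 226 ± 47.2 with IFN-γ and 255 ± 73.7 with IL-27 (SD, n = 3). None passed in the fit without the block. With the block 4 of the 5 fell with IFN-γ, beside 4.66% of all tested genes, and 3 with IL-27, beside 1.78%.

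Psat1, the phosphoserine aminotransferase, was at 117, 136 and 104 FPKM with IL-33, at 54.4, 77.8 and 56.4 with IFN-γ and at 68.7, 85.5 and 52.4 with IL-27. All 3 IL-33 libraries were the highest. Its log2 fold change was -0.92 ± 0.22 SE with IFN-γ (limma adjusted p = 0.062, and 0.00283 with the block) and -0.80 ± 0.22 SE with IL-27 (0.193, and 0.0087 with the block).

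Phgdh, the dehydrogenase of the first step of serine synthesis, was at 97.9, 101 and 60.1 FPKM with IL-33, at 40.6, 67.0 and 43.6 with IFN-γ and at 58.2, 87.5 and 50 with IL-27. Its IL-33 replicate 3 library lay within the range of both cytokine groups, so the groups overlapped. With IFN-γ its log2 fold change was -0.76 ± 0.29 SE (limma adjusted p = 0.244, and 0.0232 with the block), and with IL-27 it was -0.40 ± 0.29 SE (0.747, and 0.211 with the block).

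Shmt2, the mitochondrial serine hydroxymethyltransferase, was at 118, 102 and 68.8 FPKM with IL-33, at 67.8, 77.6 and 24.9 with IFN-γ and at 64.1, 70.3 and 32.5 with IL-27. Replicate 3 was the lowest library in all 3 groups, and the groups overlapped. Within each replicate number the cytokine library was lower than the IL-33 library, and both comparisons passed only with the block (limma adjusted p = 0.0234 with IFN-γ and 0.046 with IL-27, against 0.392 and 0.629 without it). Mthfd2, the mitochondrial enzyme that oxidises the methylene group that serine gives to folate, was at 60.5, 69.9 and 48.3 FPKM with IL-33, at 41.1, 34.3 and 29.1 with IFN-γ and at 35.9, 48.4 and 26.3 with IL-27. With IFN-γ all 3 libraries lay below all 3 IL-33 libraries, and with IL-27 1 library reached the lowest IL-33 value. Its log2 fold changes were -0.75 ± 0.25 and -0.70 ± 0.25 SE, with limma adjusted p of 0.177 and 0.362 (0.0201 and 0.042 with the block). Psph, the phosphatase of the last step of serine synthesis, did not pass in either comparison, with log2 fold changes of -0.30 and 0.07.

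The proline enzymes did not pass in any comparison. Aldh18a1, which makes the proline precursor, had log2 fold changes of -0.54 ± 0.22 SE with IFN-γ (limma adjusted p = 0.267) and -0.28 ± 0.22 SE with IL-27 (0.772). Pycr1, which completes proline synthesis, was at 0.2 to 3.35 FPKM in the 9 libraries, a level of few fragments at this depth.

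**Figure D2:**
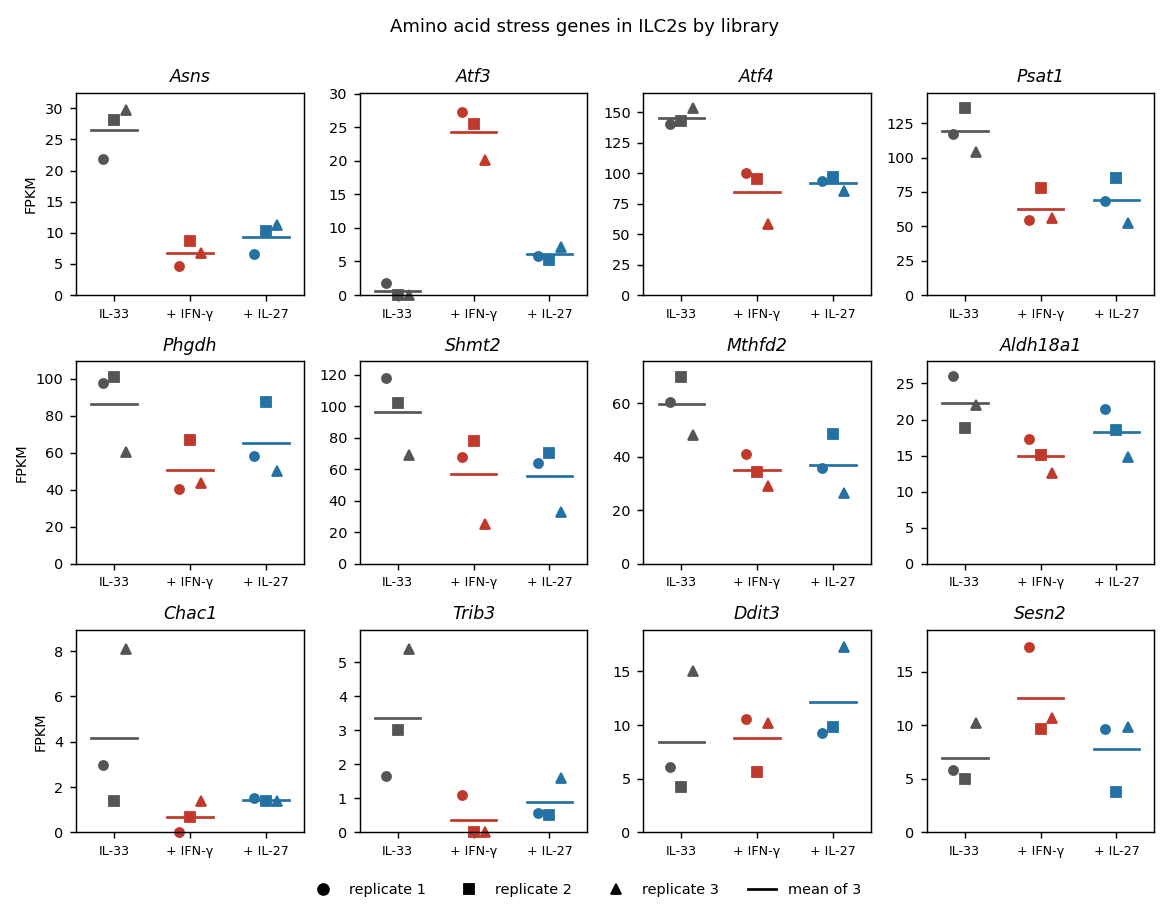
FPKM of 12 amino acid stress genes in each of the 9 libraries, by group, with the mean of 3 as a line. Asns and Psat1 were lower in every library with IFN-γ or IL-27 than in every IL-33 library, and Atf3 was highest in the 3 IFN-γ libraries.

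Among the 7 regulators, Atf3 alone rose. Atf3 (chromosome 1, 192994175 to 193007219, minus strand, build mm9), a transcription factor that binds ATF sites and often represses, was at 1.72 FPKM in IL-33 replicate 1 and listed at 0 in replicates 2 and 3. It was at 27.4, 25.5 and 20.2 FPKM with IFN-γ and at 5.82, 5.26 and 7.10 FPKM with IL-27. The 3 groups did not overlap, with IFN-γ highest and IL-33 lowest. On the log2(FPKM + 1) scale the difference was 4.17 ± 0.39 SE with IFN-γ (limma adjusted p = 3.97e-04) and 2.33 ± 0.39 SE with IL-27 (adjusted p = 0.021). No fold of FPKM is given because 2 IL-33 libraries were at 0. The IL-33 mean of Atf3, 0.574 FPKM, was below the mean of 1 FPKM over all libraries that a gene needed to be tested. So Atf3 was tested only through the cytokine groups, where it was high. The IFN-γ call was kept without any single library. For IL-27 the call did not survive leaving out IL-33 replicate 2 or 3, IFN-γ replicate 2, or any of the 3 IL-27 libraries, with adjusted p from 0.0572 to 0.107.

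Atf4 itself (chromosome 15, 80085614 to 80087970, plus strand, build mm9) had the highest mean level of the regulators. It was at 140, 143 and 154 FPKM with IL-33, at 100, 95.4 and 58.7 with IFN-γ and at 93.6, 96.8 and 85.5 with IL-27. All IL-33 libraries were above all others. Its log2 fold change was -0.81 ± 0.21 SE with IFN-γ (limma adjusted p = 0.0748, and 0.0234 with the block) and -0.66 ± 0.21 SE with IL-27 (0.271, and 0.073 with the block). Since ATF4 is controlled largely at translation, its transcript level does not give its protein level.

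Trib3, a pseudokinase that ATF4 and CHOP induce and that feeds back on ATF4, was at 1.65, 3.02 and 5.40 FPKM with IL-33, at 1.09, 0 and 0 with IFN-γ and at 0.558, 0.504 and 1.60 with IL-27. The IL-33 libraries lay above the others, but at this depth most of these values are a few fragments or none. Trib3 reached the mean of 1 FPKM needed for testing only through its IL-33 libraries (mean 3.36 FPKM, 0.365 with IFN-γ and 0.888 with IL-27). Its log2 fold changes were -1.68 ± 0.48 and -1.16 ± 0.48 SE, with limma adjusted p of 0.116 and 0.468. Ddit3 (CHOP), a C/EBP-family factor of prolonged stress, was at 6.10, 4.19 and 15 FPKM with IL-33, at 10.6, 5.65 and 10.2 with IFN-γ and at 9.28, 9.78 and 17.3 with IL-27, so that the groups overlapped. It did not pass, with log2 fold changes of 0.18 ± 0.43 and 0.59 ± 0.43 SE. The gene spans of Ddit3 and Mars overlap by 68 bases on opposite strands, and the library kit does not mark strand.

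Cebpb, a C/EBP factor that partners ATF4, was at 3.13, 3.58 and 3.10 FPKM in the IL-33 libraries and 3.89, 4.35 and 6.70 FPKM in the IFN-γ libraries. The 2 groups did not overlap, but the log2 difference of 0.46 ± 0.30 SE did not pass (limma adjusted p = 0.527). Its gene span overlaps that of Tmem189 by 908 bases. Cebpg, another ATF4 partner, and Atf5, a factor regulated at translation like ATF4, did not pass either; Atf5 had a log2 difference of -0.72 ± 0.26 SE with IFN-γ (limma adjusted p = 0.214) and shares 571 bases of its span with Nup62.

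Of the 4 effectors 3 were tested and none passed. Chac1, which degrades glutathione, was at 2.98, 1.36 and 8.10 FPKM with IL-33, at 0, 0.69 and 1.40 with IFN-γ and at 1.51, 1.37 and 1.40 with IL-27. Its highest value was in IL-33 replicate 3, and its log2 fold change with IFN-γ was -1.47 ± 0.52 SE (limma adjusted p = 0.208). Ddit4, which restrains mTORC1, was at 41.2, 49.0 and 103 FPKM in the IL-33 libraries, where replicate 3 was the highest, and 34.7 to 52.5 FPKM in the IFN-γ libraries (log2 fold change -0.41 ± 0.34 SE, limma adjusted p = 0.635). Sesn2, a leucine-sensing stress protein, was at 5.81, 4.94 and 10.2 FPKM in the IL-33 libraries and 17.3, 9.61 and 10.7 FPKM in the IFN-γ libraries (0.78 ± 0.39 SE, limma adjusted p = 0.385). Vldlr, a lipoprotein receptor, was at no more than 0.2 FPKM in any library and was not tested.

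Atf3 was then contrasted with the other ATF4 targets. In each library the gap was taken between the log2(FPKM + 1) of Atf3 and the median of the other listed stress genes tested. It was -3.07, -4.31 and -4.52 with IL-33, 0.78, 0.76 and 0.86 with IFN-γ, and -1.38, -1.56 and -0.96 with IL-27. Atf3 was thus below the median stress gene in all 6 libraries without IFN-γ and above it in all 3 with IFN-γ. The gap rose by 4.77 with IFN-γ and by 2.67 with IL-27, as a description with no test. Of the other 17 tested stress genes, 1 fell with IFN-γ and none rose, beside 0.717% and 2.19% of all tested genes. Their median log2 difference was -0.72. With IL-27 1 fell and none rose, beside 0.118% and 0.908%, with a median of -0.40.

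The 20 cytosolic synthetases load each amino acid onto its transfer RNA. They summed to 1383 ± 127 FPKM with IL-33, 1121 ± 102 with IFN-γ and 1115 ± 164 with IL-27 (SD, n = 3). With IFN-γ 18 of the 20 means were lower, and the median log2 difference was -0.46. In the fit without the block only Cars passed, lower with IFN-γ, beside 0.717% of all tested genes. With the block 9 fell with IFN-γ, beside 4.66% of all tested genes, and 4 with IL-27, beside 1.78%, and none rose. The groups did not overlap for 12 synthetases that were lower with IFN-γ, beside 8.65% of genes, and for 7 that were lower with IL-27, beside 5.72%.

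**Figure D3:**
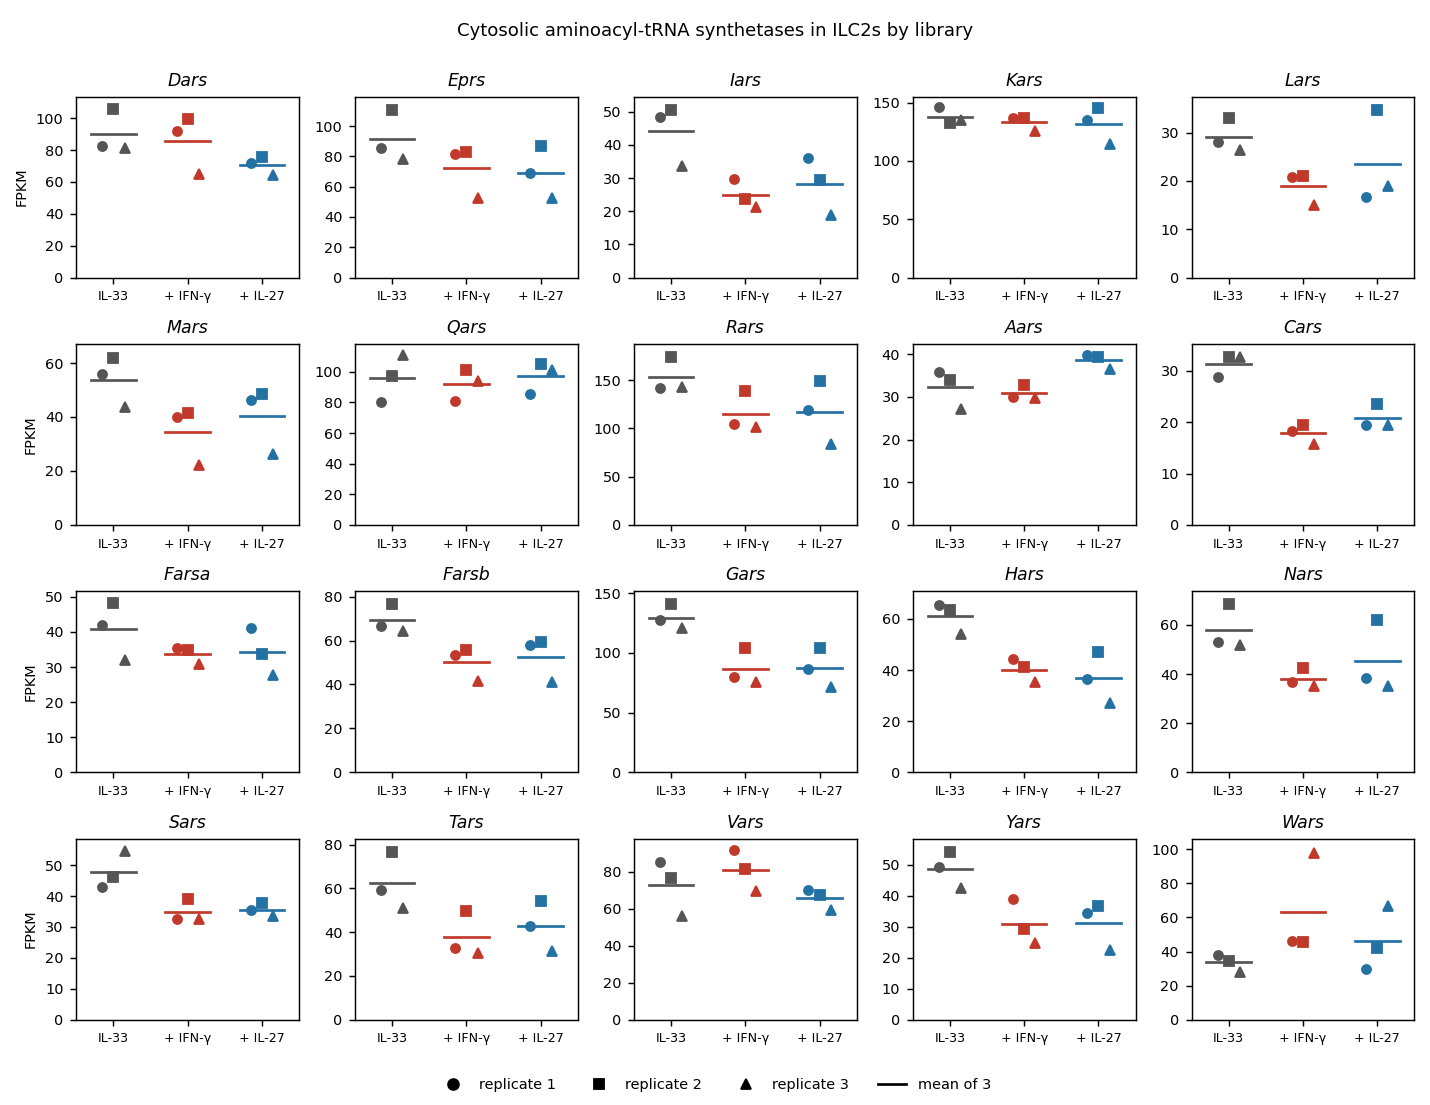
FPKM of the 20 cytosolic synthetases in each of the 9 libraries, by group and replicate number, with the mean of 3 as a line. Cars, Gars, Hars and Tars were lower in every IFN-γ library than in every IL-33 library, Kars and Qars were near the same level in all groups, and Wars was highest in IFN-γ replicate 3.

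Cars, for cysteine (chromosome 7, 150743135 to 150785995, minus strand, build mm9), was at 28.7, 32.7 and 32.6 FPKM with IL-33, at 18.2, 19.4 and 15.8 with IFN-γ and at 19.4, 23.6 and 19.5 with IL-27. All IL-33 libraries were above all others, and the spread within each group was small. It fell 1.72-fold with IFN-γ (log2 fold change -0.78 ± 0.18 SE, limma adjusted p = 0.0457, and 0.0099 with the block). The call without the block was lost when any 1 of the 9 libraries was left out, with adjusted p from 0.0617 to 0.16. With IL-27 the difference was -0.57 ± 0.18 SE (adjusted p = 0.255, and 0.0534 with the block).

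The enzymes called lower with IFN-γ by the block, besides Cars, were Farsb, Gars, Hars, Iars, Mars, Nars, Tars and Yars, for phenylalanine (beta subunit), glycine, histidine, isoleucine, methionine, asparagine, threonine and tyrosine. Gars was at 128, 141 and 121 FPKM with IL-33, at 79.5, 104 and 75.9 with IFN-γ and at 86.4, 104 and 71.8 with IL-27, with all IL-33 libraries highest (log2 fold change -0.59 ± 0.19 SE with IFN-γ, limma adjusted p = 0.164, and 0.0107 with the block). Tars was at 59.4, 76.6 and 51.1 FPKM with IL-33, at 32.8, 49.6 and 30.3 with IFN-γ and at 42.8, 54.4 and 31.3 with IL-27. All its IFN-γ libraries were below all IL-33 libraries (-0.73 ± 0.27 SE, adjusted p = 0.221, and 0.00714 with the block). Iars was at 48.5, 50.4 and 33.7 FPKM with IL-33, at 29.9, 23.8 and 21.3 with IFN-γ and at 36.2, 29.3 and 18.8 with IL-27. Iars had no overlap between IL-33 and IFN-γ, and IL-27 replicate 1 passed the lowest IL-33 value (-0.79 ± 0.27 SE with IFN-γ, adjusted p = 0.189, and 0.0143 with the block). Hars was at 65.5, 63.6 and 53.9 FPKM with IL-33, at 44.1, 41.2 and 35.3 with IFN-γ and at 36.4, 47.0 and 27 with IL-27, and neither cytokine group reached the IL-33 libraries (-0.59 ± 0.22 SE with IFN-γ, limma adjusted p = 0.224, and 0.0354 with the block; -0.74 ± 0.22 SE with IL-27). Yars was at 49.1, 54.1 and 42.4 FPKM with IL-33, at 38.97, 29.3 and 24.7 with IFN-γ and at 34.4, 36.6 and 22.4 with IL-27, again without overlap (-0.65 ± 0.24 SE with IFN-γ, limma adjusted p = 0.231, and 0.0325 with the block). Nars was at 52.9, 68.5 and 52.0 FPKM with IL-33, at 36.8, 42.4 and 35.3 with IFN-γ and at 38.4, 62.1 and 35.1 with IL-27, where replicate 2 reached into the IL-33 range (-0.58 ± 0.23 SE with IFN-γ, limma adjusted p = 0.269, and 0.033 with the block).

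Farsb was at 66.5, 76.8 and 64.5 FPKM with IL-33, at 53.4, 55.7 and 41.7 with IFN-γ and at 57.8, 59.4 and 41.0 with IL-27, with the IL-33 libraries above all others (-0.46 ± 0.20 SE with IFN-γ, limma adjusted p = 0.304, and 0.0438 with the block). Mars was at 55.8, 61.9 and 43.7 FPKM with IL-33, at 39.9, 41.3 and 22.3 with IFN-γ and at 46.4, 48.7 and 26.4 with IL-27 (-0.66 ± 0.30 SE with IFN-γ, limma adjusted p = 0.338, and 0.0185 with the block). Its replicate 3 library was the lowest in every group, and the IFN-γ libraries lay below all IL-33 libraries. With IL-27 the block called Gars, Hars, Iars and Tars, with adjusted p of 0.0184, 0.0244, 0.0444 and 0.0369. Hars overlaps the mitochondrial gene Hars2 by 198 bases, at a mean of 4.64 FPKM. Without the replicate 3 libraries, an alternative added after the data were seen, the blocked fit called 2 members lower with IFN-γ and 0 with IL-27.

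The remaining synthetases did not pass with or without the block. Kars, Qars, Aars, Dars and Vars had log2 differences with IFN-γ between -0.09 and 0.17, and Kars was among the most abundant at 115 to 146 FPKM over the 9 libraries. Eprs, Farsa, Lars, Rars and Sars had differences between -0.61 and -0.25. With IL-27 Aars was at 36.5 to 39.8 FPKM, above its 27.2 to 35.7 FPKM with IL-33, by 0.26 ± 0.17 SE (limma adjusted p = 0.707).

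The synthetases were also described by their structure. Of the 8 that belong to the multi-synthetase complex, none passed, and 2 fell with IFN-γ in the blocked fit. Of the 12 outside it 1 fell, and 7 fell in the blocked fit. The 10 enzymes listed as class I, with Eprs counted only there, gave 1 call and 4 blocked calls lower with IFN-γ. The 10 listed as class II gave none and 5. Over all tested genes 0.717% were called lower with IFN-γ, and 4.66% in the blocked fit. The difference between these subgroups was not tested. The scaffold genes of the complex, Aimp1, Aimp2 and Eef1e1, had log2 differences of -0.09, -0.37 and -0.65 with IFN-γ, and none passed (Eef1e1 passed with the block, adjusted p = 0.0438). The 17 genes listed as mitochondrial synthetases, none of them among the 39 members, were all tested, and none passed with or without the block. At an unadjusted limma p under 0.05 they gave 0 with IFN-γ, beside 15.4% of genes, and 1 with IL-27, beside 9.51%. Their median log2 differences were 0.04 and -0.02.

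Wars, for tryptophan (chromosome 12, 110098240 to 110132384, minus strand, build mm9), had a higher mean with both cytokines, unlike most synthetases. It was at 38.1, 34.6 and 28.0 FPKM with IL-33, at 46.3, 45.6 and 97.8 with IFN-γ and at 29.6, 42.1 and 66.6 with IL-27. All IFN-γ libraries were above all IL-33 libraries, while the IL-27 libraries overlapped both groups, and replicate 3 was the highest in both cytokine groups. The log2 difference with IFN-γ was 0.81 ± 0.35 SE and did not pass (limma adjusted p = 0.31, and 0.133 with the block). With IL-27 it was 0.38 ± 0.35 SE (adjusted p = 0.81). Within replicate numbers 1 to 3 the IFN-γ library exceeded its IL-33 library by 0.27, 0.39 and 1.77 on the log2 scale, so that most of the mean came from replicate 3. Without the replicate 3 libraries the difference with IFN-γ was 0.33, and with IL-27 it was -0.04. The fibroblast markers summed to 86.5 FPKM in IFN-γ replicate 3, against 36.2 in IL-33 replicate 3, in which Wars was lowest; their part was not tested.

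The gap between the log2(FPKM + 1) of Wars and the median of the other 19 synthetases was -0.63, -0.96 and -0.92 with IL-33, 0.21, 0.10 and 1.44 with IFN-γ, and -0.52, -0.36 and 0.91 with IL-27. Wars was below the median in every IL-33 library and above it in every IFN-γ library. In rank of FPKM among the 20 synthetases it went from 17, 17 and 18 with IL-33 to 9, 10 and 3 with IFN-γ, and was 18, 13 and 5 with IL-27. The gap rose by 1.42 with IFN-γ (0.95 without the replicate 3 libraries) and by 0.84 with IL-27 (0.35). The gap is a description, with no test.

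**Figure D4:**
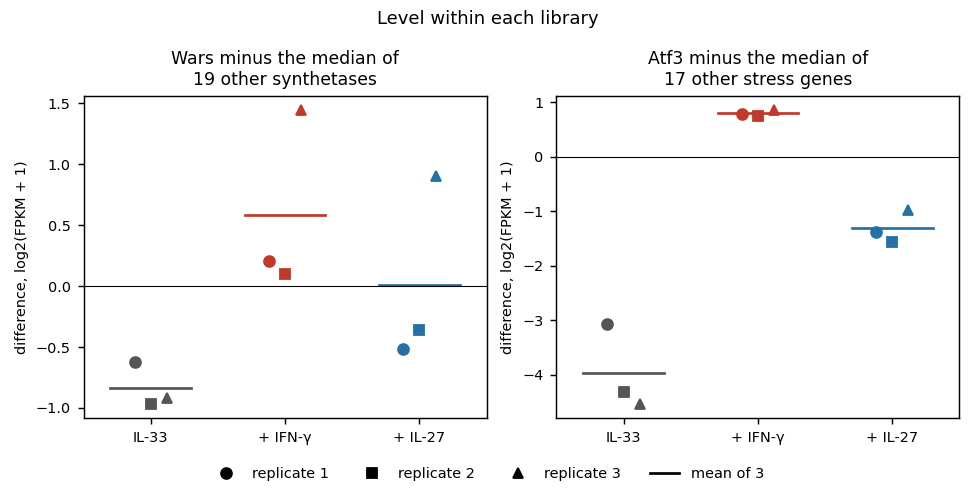
Gap on the log2(FPKM + 1) scale, in each library, between Wars and the median of the other synthetases and between Atf3 and the median of the other ATF4 targets, with 0 meaning equal to that median. Both gaps were below 0 in all IL-33 libraries and above 0 in all IFN-γ libraries, and the Wars gap of replicate 3 was the largest in each cytokine group.

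The upstream arm of the response was read from the eIF2 kinases and translation factors. Of 14 genes 1 rose and 1 fell with IFN-γ (1 and 5 in the blocked fit), and 1 rose and none fell with IL-27 (1 and 1 in the blocked fit). Over all tested genes 2.19% rose and 0.717% fell with IFN-γ (6.51% and 4.66% in the blocked fit). With IL-27 0.908% rose and 0.118% fell (3.37% and 1.78% in the blocked fit). Eif2ak2, the double-stranded RNA kinase PKR and known to be induced by interferons, was at 9.37, 9.71 and 13.9 FPKM with IL-33, at 23.0, 31.6 and 33.2 with IFN-γ and at 26.3, 23.7 and 26.0 with IL-27. All cytokine libraries were above all IL-33 libraries (2.53-fold higher with IFN-γ, limma adjusted p = 0.00907, and 2.22-fold higher with IL-27, 0.0409). The IFN-γ call was lost without IFN-γ replicate 2 (0.055), and the IL-27 call in 7 of the 9 omissions of 1 library, kept only without IL-33 replicate 3 or IFN-γ replicate 1. Eif2b1, a subunit of the exchange factor eIF2B, was at 47.5, 77.3 and 48.6 FPKM in the IL-33 libraries and 25.1, 32.0 and 22.9 FPKM in the IFN-γ libraries. It fell 2.09-fold with IFN-γ (adjusted p = 0.0443), a call lost without any 1 of the 9 libraries (0.0547 to 0.16). With IL-27 it was at 32.1, 36.5 and 26.7 FPKM, again below all IL-33 libraries, with a log2 difference of -0.82 ± 0.24 SE (limma adjusted p = 0.219, and 0.0121 with the block). The amino acid-sensing kinase Eif2ak4 (GCN2), the eIF2 alpha subunit Eif2s1 and the phosphatase subunit Ppp1r15a (GADD34) had log2 differences of -0.29, -0.10 and -1.07 with IFN-γ and did not pass without the block (Ppp1r15a adjusted p = 0.0469 with it).

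For the lists in this paragraph, the shares of all tested genes are given first. With IFN-γ 0.717% fell and 2.19% rose (4.66% and 6.51% in the blocked fit). An unadjusted limma p under 0.05 was reached by 15.4%. With IL-27 0.118% fell and 0.908% rose (1.78% and 3.37% in the blocked fit), and 9.51% reached that unadjusted p. Among 26 other reported ATF4 targets 21 were tested. With IFN-γ 2 fell and none rose (8 and 1 in the blocked fit), and 10 reached an unadjusted limma p under 0.05. With IL-27 none passed (2 lower and 1 higher in the blocked fit), and 8 reached that unadjusted p. Nupr1, a stress-induced chromatin protein, was at 4.82, 17.6 and 23.7 FPKM with IL-33, at 0, 0 and 2.30 with IFN-γ and at 0, 2.21 and 2.30 with IL-27, with all IL-33 libraries highest (log2 difference -3.22 ± 0.71 SE with IFN-γ, adjusted p = 0.0419, and -2.66 ± 0.71 SE with IL-27, adjusted p = 0.164, and 0.00939 with the block). Bcat1, the cytosolic branched-chain aminotransferase, was at 3.99, 2.19 and 3.30 FPKM in the IL-33 libraries and 0.265, 0 and 0.50 FPKM in the IFN-γ libraries (-1.72 ± 0.37 SE, adjusted p = 0.0404). At this depth the IFN-γ values of Nupr1 and Bcat1 are a few fragments or none, so the sizes of these falls are uncertain. Bcat1 reached the mean of 1 FPKM needed for testing only through its IL-33 libraries, where it was high. Its means were 3.16 FPKM with IL-33, 0.255 with IFN-γ and 0.759 with IL-27. Leaving out 1 library at a time ended the Nupr1 call 6 of 9 times, with adjusted p up to 0.15, but not without IL-33 replicate 1, IFN-γ replicate 3 or IL-27 replicate 1. The Bcat1 call was lost in 8, with adjusted p up to 0.119, and kept only without IL-27 replicate 3. The 11 tested of 12 other one-carbon and folate genes gave no call with IFN-γ (2 lower in the blocked fit; 2 at an unadjusted p under 0.05) and none with IL-27 (1 lower in the blocked fit; 2 unadjusted). The 18 chaperones and other genes of the unfolded protein response gave none with IFN-γ (7 lower in the blocked fit; 9 unadjusted) and none with IL-27 (0 in the blocked fit; 1 unadjusted).

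Setting IFN-γ directly against IL-27 asks whether the cytokines differ from each other. No member passed in limma, with or without the block, beside 0% of all 11014 genes higher and 0% lower without the block (with it, 0.0545% higher and 0.127% lower). At an unadjusted p under 0.05 there were 2 members, beside 4.39% of genes. The groups did not overlap for 2 members that were higher with IFN-γ, beside 5.5% of genes, and for 3 that were lower, beside 4.03%. Atf3 was 1.84 higher with IFN-γ than with IL-27 on the log2(FPKM + 1) scale (adjusted p = 0.418, and 0.103 with the block), and its 20.2 to 27.4 FPKM with IFN-γ stood apart from 5.26 to 7.10 with IL-27. Asns differed by -0.42 ± 0.27 SE and Wars by 0.43 ± 0.35 SE, and both had overlapping groups. That IFN-γ gave more calls than IL-27 against the shared IL-33 libraries is therefore not shown to be a difference between the cytokines for any single member.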

How the data were processed

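RNA-seq values of 9 ILC2 libraries were analysed, 3 in each group. Per the labels' protocols, an Allprep Micro kit and TruSeq v2 library kits (low sample protocol), which do not mark strand, were used. The deposited values are taken as FPKM; the authors' tables do not name the unit, which was inferred from Cufflinks being named and from the values. Per the submitters' processing notes, Bowtie2 2.1.0, TopHat2 2.0.8 and Cufflinks 2.1.1 were used with mm9. Grouping commas in the replicate 3 tables (101 to 111 values each) were removed. For the genes described here, replicate 3 values come in steps of 0.1 FPKM, unlike those of replicates 1 and 2. This makes low replicate 3 values coarser, and the depth estimates of those libraries draw on low values.

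The 11014 genes whose mean reached 1 FPKM were fitted with limma 3.58.1 in R 4.3.3 on log2(FPKM + 1), all 3 groups together, with an intensity trend and Benjamini-Hochberg adjustment over all genes in each comparison (threshold 0.05, two-sided). Folds are 2 to the power of the log2 difference and understate changes of low genes. Deviations from group means correlated at 0.128 to 0.367 in the 9 pairs of libraries with equal numbers. In the 18 other pairs they correlated at -0.298 to -0.0251. Because deviations from a group mean cancel out, these ranges are not independent. Equal numbers were treated as pairs, a pairing inferred from these same data and not given by the labels. A blocked fit (number as a factor) is printed where it changes a call given in the text, and as counts for the lists.

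Full values were given by rule for Asns, Atf3, Wars, a fixed set of 12 other stress genes and members called with or without the block, and for pathway lists up to 4 called genes and a few fixed ones. Positions are from GENCODE vM1 (mm9) and promoters from RefSeq (GRCm38.p6). Members and lists were chosen with earlier results of these data known. Tables were read with pandas 2.3.3 and numpy 2.4.6 under Python 3.11.15, and matplotlib 3.10.9 drew the figures. A gene, a motif search and a promoter stretch are not reported here.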

Additional observations from a re-analysis of the deposited data

How the results depend on the processing

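With the replicate block the members called lower were 15 with IFN-γ (2 without it) and 8 with IL-27 (1 without it), and over all genes the calls were 717 higher and 513 lower with IFN-γ (241 and 79 without it) and 371 higher and 196 lower with IL-27 (100 and 13). In this balanced design the block leaves each difference as it is and changes only its error. The members called lower with IFN-γ were 1 with only the 2 compared groups in the fit, 1 without the intensity trend, and 0 with only libraries 1 and 2 of each group, an alternative added after the data were seen; they were 1 to 2 with 1 library left out. The members called higher with IL-27 were 1, and 0 with a pseudocount of 0.1, without the filter on low values, with only the 2 compared groups, and with only libraries 1 and 2 (also 0 with the block added); with 1 library left out they were 0 to 1. The members called lower with IL-27 were 0 without the filter, with only the 2 compared groups, without the trend, and with only libraries 1 and 2 (also 0 with the block added), and 0 to 1 with 1 library left out. The cause was not tested.

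The gap of Atf3 to the other ATF4 targets depends on the pseudocount by construction, since 2 IL-33 libraries were at 0: its rise was 7.15 with a pseudocount of 0.1 and 2.89 with 5 for IFN-γ (4.77 reported), 4.89 and 1.28 for IL-27 (2.67 reported), and 1.61 with 5 for IFN-γ against IL-27 (2.1 reported). The difference of Wars with IL-27 became -0.041 with only libraries 1 and 2, with or without the block. Over all alternatives, single-gene values kept direction and side of the threshold 2674 times, lost the call 91 times, gained it 29 times and changed sign 98 times, 2 of them for Wars (IL-27, above) and the rest for genes without a call in that comparison in either fit. Low depth limits Trib3, Chac1, Pycr1 and Vldlr, which were at a few fragments. It also limits Nupr1 and Bcat1, which were at a few fragments or none in the IFN-γ and IL-27 libraries.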
